A study of Homo sapiens with 2 samples.

Results

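DDX1, NBAS, TRIB2 and GEN1 are 4 genes on the short arm of human chromosome 2, in the neighbourhood of MYCN. They were chosen by name, as the rows of the deposited array table that the platform annotation gives one of these symbols. That rule found 5 probe sets (groups of short probes that read 1 transcript) for 4 genes, of 46255 probe sets and 14812 named genes in all. TRIB2 had 2 probe sets and the others 1 each. RNA was measured in BE(2)C cells, a clonal human neuroblastoma line with amplified MYCN. One culture received the MYCN siRNA called MYCN2 and the other a non-targeting control siRNA from a different supplier. Lipofectamine 2000 carried the siRNA into both cultures, and RNA was taken 36 hours later and read on 1 Affymetrix Human Gene 2.0 ST array per culture.

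Amplified DNA around MYCN often extends into neighbouring genes in neuroblastoma, and DDX1 and NBAS are the best known of these passengers. DDX1 is a DEAD-box RNA helicase that works with the RTCB ligase in joining the pieces of a transfer RNA after its intron is cut out. NBAS belongs to the complex with ZW10 and RINT1 that tethers vesicles returning from the Golgi to the endoplasmic reticulum (ER), and also takes part in nonsense-mediated decay of messenger RNA. TRIB2 is a Tribbles pseudokinase that brings the COP1 ubiquitin ligase to substrates such as C/EBP-alpha. GEN1 is a nuclease that cuts Holliday junctions, the crossed DNA strands of homologous recombination. The comparison asks whether the RNA of these neighbours differed when MYCN was the target of siRNA.

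MYCN, as a partner of MAX, is known to bind E-box sequences, of which CACGTG is the canonical form. The RefSeq windows from 250 bases before to 50 bases after the annotated start are printed here because they are the starts of the 4 genes whose RNA was compared. All are from GRCh38.p14 and read 5′ to 3′ along the gene. Capitals mark every CANNTG, the general E-box, which includes CACGTG and reads as CANNTG on the other strand too.
DDX1, chr2:15591618-15591917, plus strand: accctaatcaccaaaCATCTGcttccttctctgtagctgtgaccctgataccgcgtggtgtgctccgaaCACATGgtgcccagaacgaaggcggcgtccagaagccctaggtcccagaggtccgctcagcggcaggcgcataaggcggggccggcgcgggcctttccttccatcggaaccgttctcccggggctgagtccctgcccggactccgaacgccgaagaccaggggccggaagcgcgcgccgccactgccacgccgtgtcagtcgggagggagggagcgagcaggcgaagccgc
NBAS, chr2:15561285-15561584, minus strand: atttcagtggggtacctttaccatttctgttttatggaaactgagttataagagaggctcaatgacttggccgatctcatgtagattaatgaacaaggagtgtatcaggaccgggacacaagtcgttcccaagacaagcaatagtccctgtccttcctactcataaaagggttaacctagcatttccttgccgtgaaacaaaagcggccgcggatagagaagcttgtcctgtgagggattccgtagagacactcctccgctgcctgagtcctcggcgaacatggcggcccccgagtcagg
TRIB2, chr2:12716686-12716985, plus strand: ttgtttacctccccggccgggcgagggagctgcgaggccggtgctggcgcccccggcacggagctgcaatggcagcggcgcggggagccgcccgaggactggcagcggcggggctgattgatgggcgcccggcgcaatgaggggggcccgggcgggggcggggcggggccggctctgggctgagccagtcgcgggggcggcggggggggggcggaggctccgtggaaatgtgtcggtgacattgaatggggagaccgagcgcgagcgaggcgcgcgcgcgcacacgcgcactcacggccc
GEN1, chr2:17753619-17753918, plus strand: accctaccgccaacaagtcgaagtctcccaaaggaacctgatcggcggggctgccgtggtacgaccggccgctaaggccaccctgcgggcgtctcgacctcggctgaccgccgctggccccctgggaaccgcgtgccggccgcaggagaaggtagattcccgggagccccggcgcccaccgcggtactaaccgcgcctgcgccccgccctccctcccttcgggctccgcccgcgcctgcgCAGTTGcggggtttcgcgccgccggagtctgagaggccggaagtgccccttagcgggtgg
None of these windows, nor a further RefSeq window of GEN1 that starts downstream, held CACGTG. Over all 35116 windows of that table, 7.26% held it. The general form stood in the DDX1 window at 2 places and in each GEN1 window at 1, and not in the NBAS or TRIB2 window, against 68.7% of all windows with at least 1. The letters describe these windows only. GC content was 67.0% for DDX1, 49.7% for NBAS, 77.3% for TRIB2 and 72.7% for the GEN1 window shown.

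The values are log2 levels made by the authors with RMA. A gene counted as measured when it reached the median of all rows (4.55 in the MYCN siRNA array and 4.60 in the control array) in at least 1 array, which kept 10592 genes. The 2 arrays correlated at r = 0.986, and the differences of measured genes had a median of 0.01 and an SD of 0.43. Neither group has a second array, so no p-value is given and precision is limited by the number of arrays. The only measure of error is the disagreement between probe sets of 1 gene, whose differences had an SD of 0.32 per probe set over 374 protein-coding genes with several. This SD leaves out the spread between cultures and between hybridisations. MYCN RNA was not analysed here, and how far the siRNA lowered it is not reported. Of the adrenergic neuroblastoma markers, 10 of 12 had a row and all 10 were measured, at 6.53 to 11.7 in the MYCN siRNA array and 6.47 to 11.7 in the control array, with summed levels of 13.6 and 13.4. Within the adrenergic list, DBH, the enzyme that makes noradrenaline, had a difference of 1.45 and ISL1 one of −0.43. The rest of that list lay from −0.09 to 0.30. Of the measured Schwann markers, S100B was at 1.02 and SOX10 at −0.28. The mesenchymal markers LUM, PRRX1 and THY1 were at −1.17, −0.51 and 0.10, and the epithelial marker KRT19 was at 0.40. PRRX1 had a level of 4.35 in the MYCN siRNA array, below the median there, and 4.86 in the control array. Of the markers of other cell types, 4 of 7 mesenchymal, 2 of 4 Schwann, 1 of 4 blood and 2 of 4 endothelial and epithelial genes had a row. Of those with a row, 3, 2, 0 and 1 were measured. The markers without a named row could not be assessed. Levels were summed over all markers with a row, also those below the filter. In the MYCN siRNA and control arrays these sums were 7.86 and 8.11 (mesenchymal) and 7.50 and 7.05 (Schwann). They were 4.02 and 4.02 (blood, from CD14 alone) and 6.05 and 5.79 (endothelial and epithelial). The part of these cell types in the differences below was not tested. In RNA from a whole culture, fewer cells of a type and less RNA per cell cannot be told apart.

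All 4 genes were measured in both arrays, and none differed by 2-fold or by 1.5-fold. Of all measured genes, 3.37% differed by at least 2-fold either way and 14.6% by at least 1.5-fold. The gene with the largest difference was GEN1, which was lower in the MYCN siRNA array. DDX1 was lower and NBAS higher by less than the SD between probe sets. The probe sets of TRIB2 had opposite signs.

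DDX1 had a level of 10.68 in the MYCN siRNA array, against 10.86 in the control array. The difference, MYCN siRNA minus control siRNA, was −0.18 on the log2 scale, or 1.14-fold lower. This is 0.58 of the SD between probe sets, and 61.7% of all measured genes lay at least as far from 0. The helicase lay nearer to 0 than most measured genes.

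NBAS had a level of 8.86 in the MYCN siRNA array, against 8.73 in the control array. The difference was 0.13, or 1.09-fold higher, which is 0.41 of the SD between probe sets. Of all measured genes, 72.0% lay at least as far from 0. DDX1 and NBAS stand next to each other among the protein-coding genes of this stretch and lay on opposite sides of 0. The gap between them was −0.31 (DDX1 minus NBAS), within the 0.45 by which 2 probe sets of the same gene differ at 1 SD over the 374 genes. Over the 33 genes whose probe sets both match the strand of their ID neighbours, that figure was 0.29, just below the size of the gap. Both figures leave out the spread between cultures and between hybridisations, so this gap has no test.

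TRIB2 was read by a pair of probe sets. Probe set 1 had 9.80 in the MYCN siRNA array and 9.62 in the control array, a difference of 0.18 (1.13-fold higher). Probe set 2 had 6.41 in the MYCN siRNA array and 6.74 in the control array, a difference of −0.33 (1.26-fold lower). These readings of the pseudokinase lay 0.51 apart, a gap that 23.3% of the 374 pairs reached or passed, and 36.6% of the pairs had opposite signs. The mean over both was 8.11 in the MYCN siRNA array and 8.18 in the control array, a difference of −0.08. The direction for TRIB2 depends on which probe set is read. The IDs of the 10 nearest named rows around probe set 1 belong to genes on the plus strand, where TRIB2 lies, and the 10 around probe set 2 to genes on the minus strand. Which strand the probes of probe set 2 read was not tested.

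GEN1 had a level of 8.53 in the MYCN siRNA array, against 8.93 in the control array. The difference was −0.41, or 1.33-fold lower, which is 1.28 times the SD between probe sets. A share of 12.1% of all measured genes had a lower difference, and 28.1% lay at least as far from 0. GEN1 and NBAS lay furthest apart among the 4 genes, by 0.54 (NBAS minus GEN1), more than the 0.45 for a pair of probe sets. With 1 culture per group this gap has no test.

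**Figure D1:**
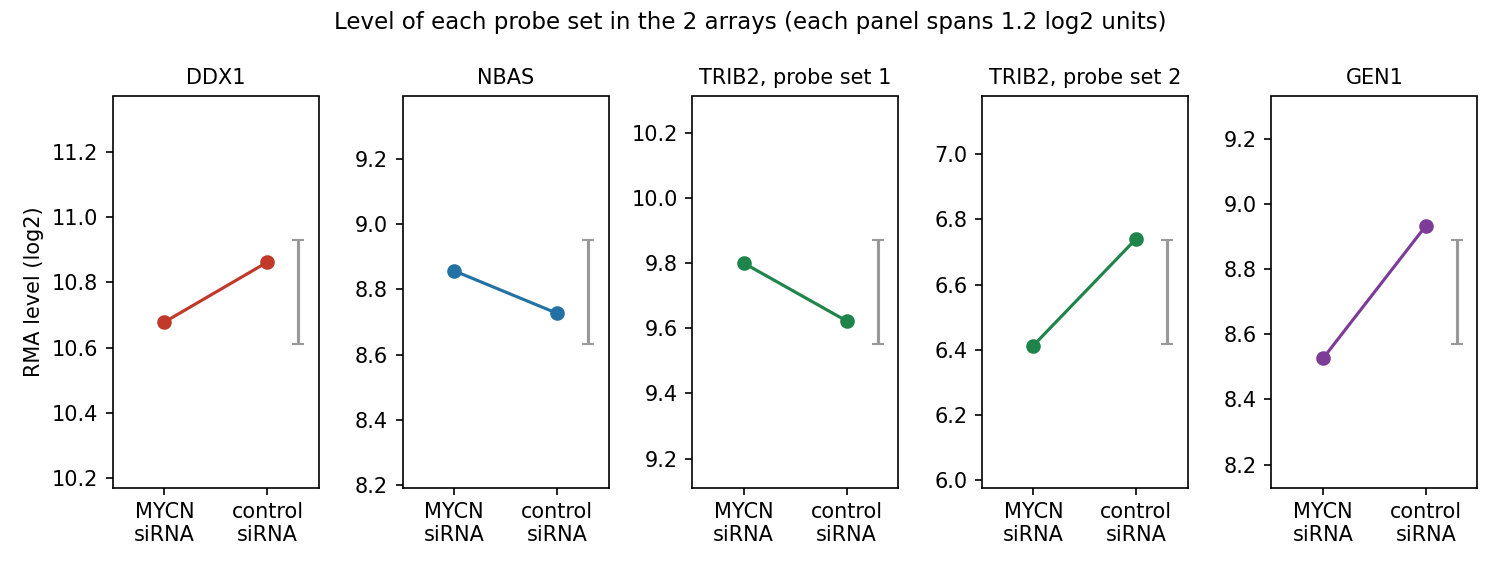
RMA level (log2, vertical axis) of the 5 probe sets in the MYCN siRNA array (left) and the control siRNA array (right), 1 array each, on axes of equal span. The length of the grey bar is the SD of 0.32 between probe sets of 1 gene, and the step of GEN1 (−0.41) and that of TRIB2 probe set 2 (−0.33) are longer than it.

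**Figure D2:**
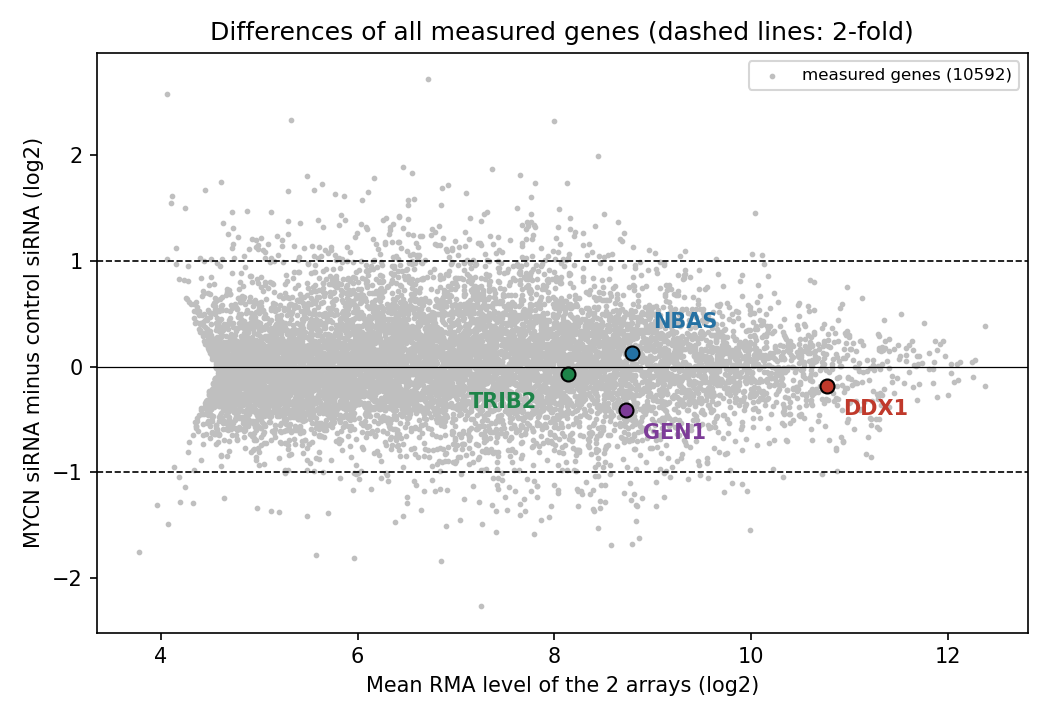
Difference (MYCN siRNA minus control siRNA, log2) against mean level (log2) for the 10592 measured genes in grey, with DDX1, NBAS, TRIB2 (mean of its probe sets) and GEN1 in colour. All 4 lie between the dashed 2-fold lines, from −0.41 to 0.13.

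The stretch of chromosome 2 from TRIB2 to GEN1 was described next, to show whether its genes shared a direction. RefSeq lists 47 genes there, 10 of them protein coding, and 9 genes had a row with a symbol, 7 of them protein coding. Of the 7 that were measured, 4 were higher and 3 lower in the MYCN siRNA array, with a median difference of 0.12, beside 50.9% higher and a median of 0.01 over all measured genes. TRIB2 counted as lower by the mean of its probe sets (−0.08), while its probe set 1 alone was at 0.18. MIR3125, which lies inside TRIB2, counted as a gene of its own. With no level filter the median was 0.00 over 9 genes, and with a filter at the 70th percentile 0.02 over 6. None of the 7 reached 2-fold, beside 3.37% of all measured genes, and 7 genes are too few to tell the 2 shares apart.

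SMC6, a core subunit of the SMC5/6 complex of chromosome maintenance, had 8.89 in the MYCN siRNA array and 8.77 in the control array, a difference of 0.12. Its annotated span overlaps that of GEN1 on the opposite strand, and the 2 genes lay on opposite sides of 0. MIR3125, a microRNA gene that RefSeq places inside TRIB2, had 6.73 in the MYCN siRNA array and 6.52 in the control array. Its difference of 0.21 was of the same sign as probe set 1 of TRIB2. Whether that row reads the microRNA precursor or its host transcript was not tested. LOC100506474, a long non-coding RNA, had 4.77 in the MYCN siRNA array and 4.36 in the control array, a difference of 0.41 close to the filter. VSNL1, a neuronal calcium sensor, was listed at 4.05 in both arrays, below the filter, where signal and background were not told apart.

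Outside this stretch, the 20 nearest protein-coding genes beyond TRIB2 and the 20 beyond GEN1 held 22 measured genes, 11 higher and 11 lower, with a median difference of −0.03. Of these, 1 was at least 2-fold higher, against 2.21% of all measured genes, and 0 were at least 2-fold lower, against 1.16%. SLC66A3, which encodes a membrane protein of the PQ-loop family, had 7.30 in the MYCN siRNA array and 5.73 in the control array (difference 1.57, 2.97-fold higher). HS1BP3, an HCLS1-binding protein gene, and KLF11, a Kruppel-like transcription factor, had differences of 0.83 and 0.60. The lowest were SDC1, the cell-surface proteoglycan syndecan-1, at −0.90, ODC1, ornithine decarboxylase of polyamine synthesis, at −0.83, and WDR35, a protein of cilium transport, at −0.56. Differences of either sign larger than those of the 4 genes stood on both flanks.

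**Figure D3:**
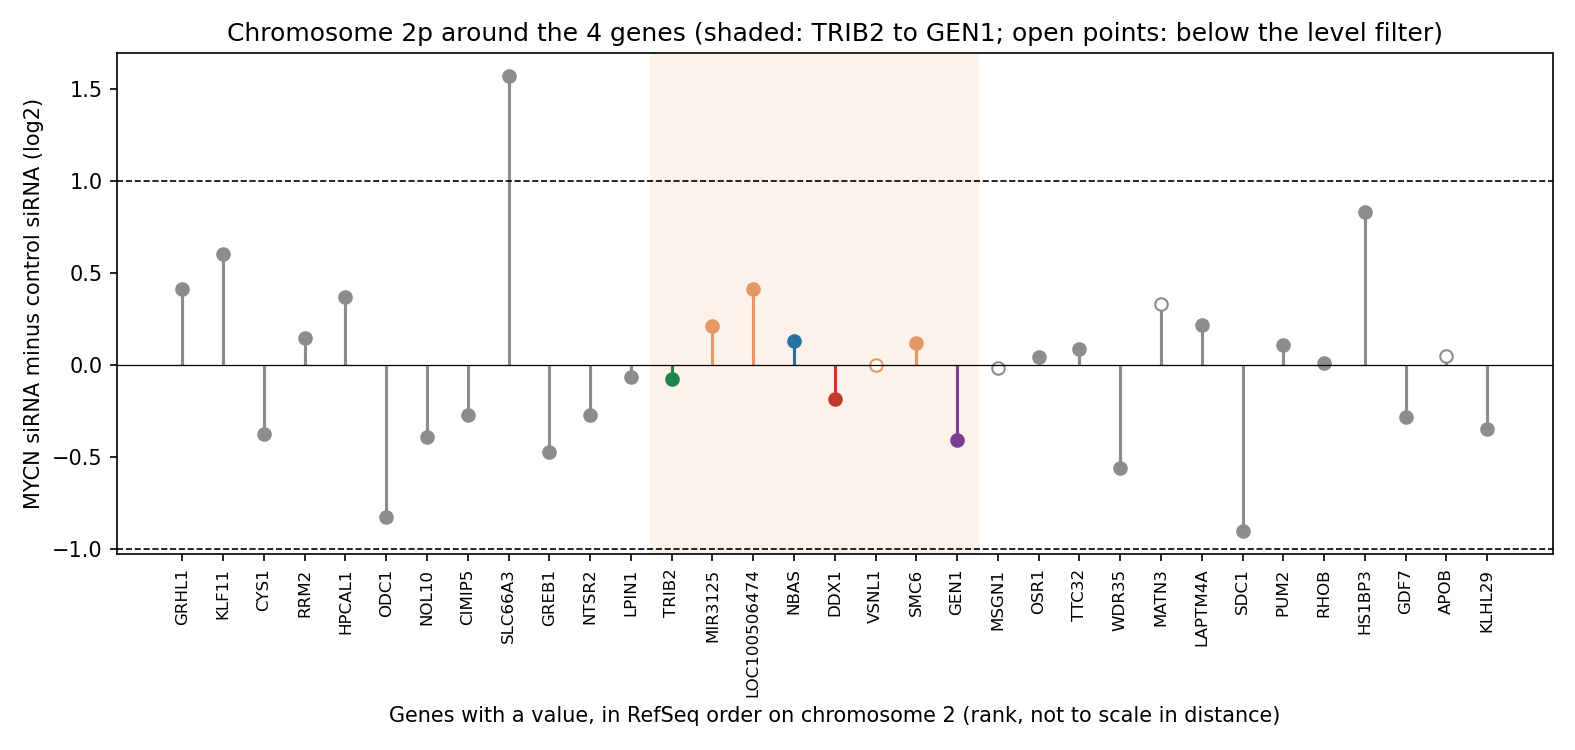
Difference (MYCN siRNA minus control siRNA, log2) of genes with a value, in RefSeq order along chromosome 2, with TRIB2 to GEN1 shaded and open points for genes below the level filter. No gene in the shaded stretch reaches the dashed 2-fold lines, beside 3.37% of all measured genes, and SLC66A3 on the TRIB2 side is at 1.57.

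The partners of each gene were then described by function. The 5 lists together named 114 genes, of which 65 were measured. Of these 65, 0 were higher by 2-fold or more and 1 was lower by as much, or 1.54%, beside 3.37% of all measured genes (2.21% higher and 1.16% lower). At 1.5-fold, 7 were higher and 4 lower, or 16.9% of them, beside 14.6% of all measured genes (8.81% higher and 5.79% lower). For the counts by direction below, 50.9% of all measured genes were higher and 48.0% lower, with a median difference of 0.01. Whether any list departs from these was not tested.

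For DDX1, the list joined genes of transfer RNA ligation and splicing with ERN1 and XBP1 of the unfolded protein response, where the same ligase acts. Of the 16 listed genes, 11 had a row, and all 11 were measured. Of them, 7 were higher and 4 lower, with a median difference of 0.12 and none past 1.5-fold. RTCB, the ligase itself, had 9.84 in the MYCN siRNA array and 9.72 in the control array, and RTRAF, another subunit, had 8.96 and 8.93. These subunits, named for their role after their values were seen, had differences of 0.12 and 0.03, beside −0.18 for DDX1. The lowest members were XBP1, whose messenger RNA the ligase joins in the unfolded protein response, at −0.26, and TSEN15, a subunit of the transfer RNA splicing endonuclease, at −0.17. TSEN15 was also the member nearest to DDX1, with a gap of 0.02 between their differences over the 2 arrays. The highest were ERN1, the kinase and nuclease that cuts XBP1 messenger RNA, at 0.36, and the ligase complex subunit C2orf49 at 0.27. ERN1 was close to the filter, at 5.30 in the MYCN siRNA array and 4.94 in the control array.

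For NBAS, 12 of 23 listed genes of Golgi-to-ER tethering and transport had a row, and all 12 were measured. Of them, 10 were higher and 2 lower, with a median difference of 0.24, beside 50.9% higher and a median of 0.01 over all measured genes. RINT1, its partner in the tethering complex, had 9.02 in the MYCN siRNA array and 9.18 in the control array, a difference of −0.15 that is within the SD between probe sets. SCFD2, a Sec1-family gene, had 9.10 in the MYCN siRNA array and 10.01 in the control array (difference −0.91, 1.88-fold lower). KDELR3, a receptor that returns ER proteins from the Golgi, was at 0.62 and ARFGAP3, a GTPase activator of ARF proteins, at 0.60. SEC22B, a SNARE of this route, was nearest to NBAS, with a gap of 0.03.

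Of the 23 listed genes of nonsense-mediated decay and its helpers, 13 had a row and 12 were measured. Of these 12, 4 were higher and 8 lower, with a median difference of −0.15. RUVBL1, an ATPase that acts with the decay kinase SMG1, was at −0.58 and CASC3, of the exon junction complex, at −0.42. The highest were XRN1, the exonuclease that degrades decapped RNA, at 0.70 (1.63-fold higher) and the decapping enzyme DCP2 at 0.68 (1.60-fold higher). MAGOHB, of the exon junction complex, was nearest to NBAS with a gap of 0.05.

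For TRIB2, 15 of 24 listed genes of Tribbles signalling had a row, and all 15 were measured. Of them, 7 were higher and 8 lower, with a median difference of −0.21. COP1 and CEBPA, the gene of C/EBP-alpha, were listed but had no row. TRIB1, its paralog, had 6.45 in the MYCN siRNA array and 7.71 in the control array, a difference of −1.26 (2.39-fold lower). TRIB3, the other paralog, had 6.67 in the MYCN siRNA array and 6.65 in the control array, and at a gap of 0.10 it was nearest to the mean of TRIB2. It was nearest to neither reading: MAP2K1, a kinase of the MAP kinase cascade, at 0.21, lay 0.03 from probe set 1, and CDC25B, a cell cycle phosphatase, at −0.28, lay 0.05 from probe set 2. The 3 Tribbles genes therefore gave −1.26, −0.08 and 0.02 for TRIB1, TRIB2 and TRIB3. CUL4A, a cullin scaffold of ubiquitin ligases, was at −0.64. BTRC, the F-box protein that recognises beta-catenin, was at 0.86 (1.82-fold higher) and the transcription factor FOXO4 at 0.74 (1.67-fold higher).

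For GEN1, 16 of 28 listed genes of Holliday junction processing and homologous recombination had a row, and 15 were measured. Of these 15, 5 were higher, 9 lower and 1 equal in both arrays, with a median difference of −0.05. BLM was listed but had no row. XRCC2, a homologous recombination gene, had 8.45 in the MYCN siRNA array and 9.28 in the control array (difference −0.83, 1.78-fold lower). EXO1, an exonuclease of the same XPG family as GEN1, was at −0.52. TOP3A, the topoisomerase that dissolves junctions with BLM, was at −0.43 and nearest to GEN1, with a gap of 0.02. Of the other resolvase route, the nuclease MUS81 (named for its role after its value was seen) was at 0.05, SLX4, the scaffold, at 0.31 and SLX4IP, which binds SLX4, at 0.49. EME1 and EME2, the partners of MUS81, also named after their values were seen, were at −0.14 and −0.18. The named genes of this route thus lay on both sides of 0.

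**Figure D4:**
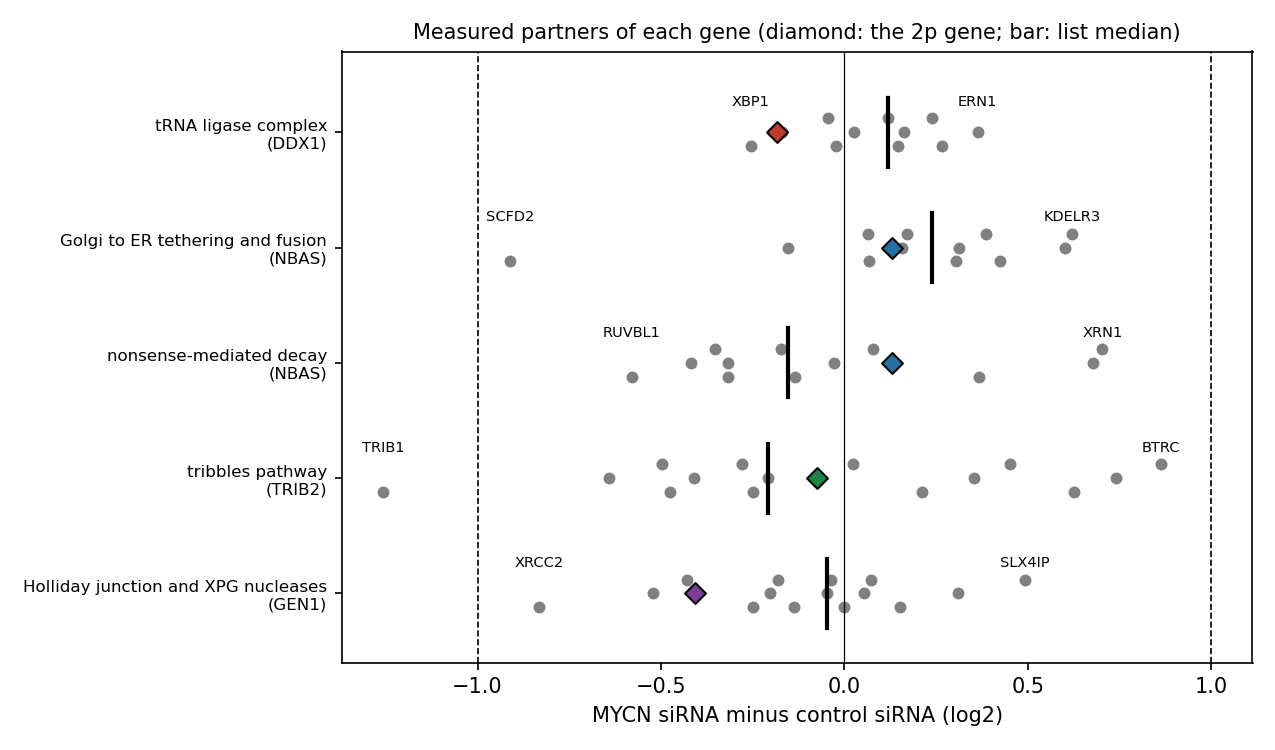
Differences (MYCN siRNA minus control siRNA, log2) of the measured members of the 5 function lists (grey points), the list median (black bar) and the chromosome 2p gene that each list belongs to (diamond). TRIB1 at −1.26 is the 1 point past a dashed 2-fold line, and GEN1 at −0.41 lies to the left of its list's median of −0.05.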

How the data were processed

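Total RNA from 1 MYCN siRNA and 1 control siRNA culture was read on Human Gene 2.0 ST arrays. Per the submitters' processing notes, RMA gave the deposited log2 values. Its settings are not given in these sources, and the word reanalysis in the title of the control array is unexplained. Deposited log2 values ran from 0.85 to 13.5. The platform annotation named 15835 rows with 1 gene symbol, none with several, and left 30420 unnamed; by gene ID, all 15835 were found in RefSeq for GRCh38.p14. A gene with several probe sets takes the mean of their log2 values, differences are MYCN siRNA minus control siRNA, and folds are powers of 2 of them. Genes counted as measured when they reached the row median of either array. Python 3.11.15, numpy 2.4.6, pandas 2.3.3 and statsmodels 0.14.6 were used, and the counting and scaling steps were tested on simulated data. No test between groups was made.

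The members and lists were chosen with earlier results of these data known. The text names the 4 genes, the genes from TRIB2 to GEN1 with a row (1 of them is not reported here), the 3 highest and 3 lowest flanking genes and, of each function list, the 2 highest, the 2 lowest and the member nearest in difference. Alternatives were median centring, quantile normalization, loess (span 0.3), an offset of 16 on linear values, the brightest probe set, other filters and a 1.5-fold threshold. The search for CANNTG was added after the promoter windows were seen to hold no CACGTG.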

Additional observations from a re-analysis of the deposited data

How the results depend on the processing

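The differences of the 4 genes moved by less than the SD of 0.32 between probe sets under all 5 alternatives run on them, though TRIB2 moved by more than the 0.21 of pairs that match their strand block. DDX1 ran from −0.18 to −0.12, NBAS from 0.12 to 0.18 and GEN1 from −0.42 to −0.36. TRIB2 ran from −0.09 to 0.18, and its sign turned with the brightest probe set, since that setting takes probe set 1 alone. The count of genes at least 2-fold higher, 234 as reported, was 124 with an offset of 16 on linear values, which damps dim genes, and 933 at 1.5-fold. The count of genes at least 2-fold lower, 123 as reported, was 613 at 1.5-fold. The median of the Tribbles list was −0.039 with the brightest probe set and 0.023 with the filter at the 70th percentile, which left 13 of its 15 genes. The median from TRIB2 to GEN1, 0.12 as reported, was 0.00 with no filter and 0.02 with the filter at the 70th percentile. Of the 69 alternative values of single genes and list medians, 67 moved by less than the spread between probe sets (for a median, that SD over the square root of the number of genes). The median from TRIB2 to GEN1 with no filter is among the 67 but moved by almost that limit. With the SD of 0.21 in its place, both filter settings of this median would be past the limit. So would the flank median with median centring (0.02), the GEN1 list median with quantile normalization (−0.11) and the Tribbles median with the offset (−0.13). The flank median, −0.03 as reported, and the GEN1 list median, −0.05 as reported, turned sign with median centring, to 0.02 and 0.002. The flank median was also 0.01 with no filter and with the filter at the 70th percentile. No paired analysis was possible because each group has 1 array. Leaving out a replicate was not possible for the same reason. Signal near the array medians limits what can be said of dim genes.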

Other observations

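The probe-set IDs of this array run in blocks by strand, and the 2 probe sets of TRIB2 stand in blocks of opposite strands. For 10560 named rows, at least 9 in 10 of the nearest named rows on their chromosome belonged to genes of 1 strand, and in 303 of these rows (2.87%) the gene itself lies on the other strand. Probe set 2 of TRIB2 is such a row. Of the 374 pairs of probe sets behind the SD of 0.32, 184 had 1 such row and 33 had none. The other 157 are in neither group: a row had no clear block, or both rows were off their block. The median gap between the differences of a pair was 0.30 with such a row and 0.09 without, and the SD per probe set was 0.34 and 0.21. In 160 of the 184 pairs (87.0%) the row off its strand block was the dimmer one. For TRIB2, probe set 2 lay 3.13 below probe set 1 in mean level. Strand match and level therefore cannot be told apart in these gaps. Against the SD of 0.21 from 33 pairs, the difference of GEN1 (−0.41) is the larger, while those of DDX1 (−0.18), NBAS (0.13) and TRIB2 probe set 1 (0.18) are smaller. The gap between DDX1 and NBAS (−0.31) is slightly larger in size than the 0.29 by which 2 probe sets of these pairs differ at 1 SD. That figure leaves out the spread between cultures, so the gap has no test. Whether the 33 pairs share probes was not tested.

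VSNL1 is 1 of 1859 rows (4.02%) with identical values in both arrays to the last deposited decimal, 446 of them with a gene symbol. RAD52, a recombination gene in the GEN1 list, is another, at 6.94 in both arrays. The labels give no reason for this.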
